A study of Bos taurus with 21 samples.

Results

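Milk somatic cells of 21 Holstein cows were ranked by how their neutrophil transcripts stood against their macrophage transcripts, and the 7 libraries at the top of the ranking were compared with the 7 at the bottom. For each library a score was taken as the mean log2(CPM + 0.25) of S100A8, S100A9 and S100A12 minus that of CD68, CD163 and CSF1R. For these 6 genes, CPM is the count of a gene scaled to the total of its library. For the levels of all other genes, that total was first multiplied by the TMM scaling factor of the library. The 7 highest scores form the high-score set (neutrophil-rich) and the 7 lowest the low-score set (macrophage-rich), and the other 7 cows lie in between. The libraries were thus selected on measured levels of 6 genes in the same RNA, so those 6 genes are described without a test and left out of every comparison. All cows were Holstein, no treatment is given in the labels, and the total RNA came from unsorted somatic cells of the milk. The high-score set held 3 cows of the high yielding group (HY) and 4 of the low yielding group (LY), and the low-score set held 4 HY and 3 LY cows. Parity was 2 to 4 in both sets. Time in lactation was 59 to 268 days in the high-score set and 41 to 265 days in the low-score set.

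Milk carries white blood cells together with epithelial cells shed from the gland. Macrophages are resident phagocytes of the healthy udder that take up fat and casein, clear dying cells and present antigen. Neutrophils are short-lived phagocytes that leave the blood and enter milk in large numbers during infection of the udder, and they carry S100 proteins, granule proteins and chemokine receptors. The ratio of both cell types is therefore used in dairy research to describe the state of the udder. In bulk RNA such as this, fewer cells of a type and less RNA per cell cannot be told apart.

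The score was 2.98 in LY cow 2, 2.71 in LY cow 10, 2.58 in HY cow 3, 1.99 in LY cow 4, 1.78 in HY cow 7, 1.69 in LY cow 6 and 1.18 in HY cow 8. In the low-score set it was 0.46 in LY cow 11, 0.41 in HY cow 4, 0.37 in HY cow 2, 0.25 in LY cow 12, -0.25 in HY cow 1, -0.43 in LY cow 5 and -0.60 in HY cow 5. At the upper limit of the rule, the last cow inside had 1.18 and the first outside, LY cow 9, had 0.78. At the lower limit, LY cow 11 inside had 0.46 and HY cow 9 outside had 0.47, so the low-score set passes into the middle cows without a gap. The scores form a gradient and not separate clusters.

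The macrophage side of the score separated the sets, while the S100 side overlapped. CD163, the haemoglobin scavenger receptor of macrophages, lay between 65.2 and 187 CPM in the high-score set, with a median of 79.1, and between 298 and 1006 in the low-score set, with a median of 472. CSF1R, the receptor of the macrophage growth factor, was 107 to 525 CPM with a median of 241, against 571 to 1282 with a median of 831. Neither gene overlapped between the sets. CD68, a lysosomal glycoprotein of macrophages, did overlap, at 791 to 3427 CPM with a median of 1516, against 1853 to 4078 with a median of 2641. S100A8, one chain of calprotectin, was 248 to 1345 CPM with a median of 1104, against 266 to 757 with a median of 523. Its levels overlapped, and HY cow 8, at 248 CPM, lay below all 7 low-score cows. S100A12, another calcium-binding protein of neutrophils, had medians of 2412 and 2581 CPM, the higher one in the low-score set. These values chose the libraries and are no result.

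**Figure D1:**
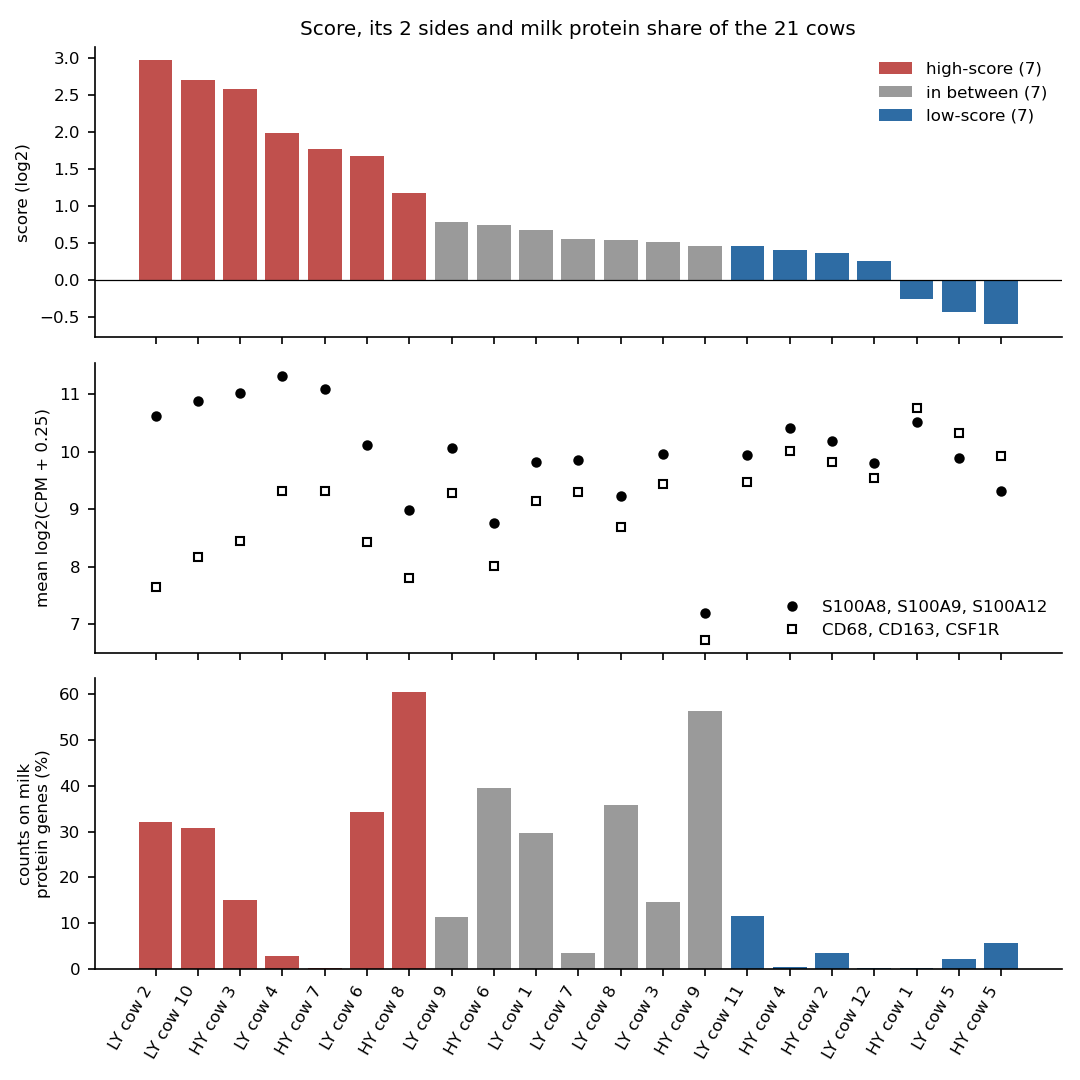
Score, its 2 sides and the share of counts on milk protein genes in the 21 cows, ordered by score. Top, the score in log2 units as bars, with the high-score set in red, the middle cows in grey and the low-score set in blue. Middle, the mean log2(CPM + 0.25) of the 3 S100 genes (filled circles) and of the 3 macrophage genes (open squares). Bottom, the share of counts on 7 milk protein genes in percent. The macrophage side is 7.65 to 9.32 in the high-score set and 9.48 to 10.8 in the low-score set, while the S100 side overlaps.

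Markers that took no part in the score were used to check the names of the sets. The neutrophil markers were CXCR2, MMP9, LTF and MPO, and the macrophage markers were MSR1, CD14, C1QA, C1QB, C1QC and MERTK. Ranked by the difference of these markers, 6 of the 7 high-score cows were among the 7 highest and 6 of the 7 low-score cows were among the 7 lowest. The exceptions were HY cow 7, at rank 9, and HY cow 2 of the low-score set, at rank 11. By the neutrophil markers alone, 5 high-score cows were among the 7 highest. LTF is also made by mammary epithelium, and without it these counts were 6 high-score and 5 low-score cows for the difference and 4 high-score cows for the neutrophil markers. By the macrophage markers alone, 5 low-score cows were among the 7 highest and 5 high-score cows among the 7 lowest. The summed macrophage markers were 342 to 1254 CPM with a median of 706 in the high-score set and 970 to 2022 with a median of 1537 in the low-score set. The summed neutrophil markers were 847 to 4130 CPM with a median of 1902, against 253 to 2031 with a median of 827. Without LTF they were 330 to 3428 CPM with a median of 1177, against 187 to 1923 with a median of 687.5. These sums overlapped, and every library held transcripts of both cell types, so the names are relative. CXCR1 had no count in any cow, and whether its reads could be counted to it was not tested. If they could, these depths allow 0.117 to 0.381 CPM in a high-score library (3 counts of the total). In a low-score library they allow 0.133 to 0.349 CPM.

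Markers of other cells were measured beside these. The 7 mammary epithelial markers summed to 655 to 852900 CPM with a median of 194500 in the high-score set and to 1077 to 61170 with a median of 11050 in the low-score set. The 7 milk protein genes took 0.118% (95% exact interval 0.115 to 0.120) of the counts in HY cow 7, 2.73% in LY cow 4 and 15.1% in HY cow 3. They took 30.8% in LY cow 10, 32.02% in LY cow 2, 34.3% in LY cow 6 and 60.45% (60.43 to 60.47) in HY cow 8. In the low-score set the share was 0.201% to 11.6%, with a median of 2.21%. Intervals of this kind cover counting error only. The share thus lay above all low-score libraries in 5 of the 7 high-score libraries, and its part in the results below was not tested except where a value is given with it as a term. Markers of T cells summed to 77.7 to 1064 CPM against 54.9 to 748, and those of B cells to 4.01 to 21.2 against 2.75 to 100.5. Markers of fibroblasts and endothelium summed to 30.3 to 252 CPM with a median of 46.7, against 68.1 to 305.5 with a median of 86.6. Platelet markers summed to 17.2 to 96.5 CPM against 9.51 to 66.1, and those of eosinophils and mast cells to 4.97 to 22.1 against 8.05 to 17.1. All of these ranges overlapped. Markers of red cells were at or near 0 in both sets, with HBB at 0 in all cows.

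The total counts on genes were 7878557 to 25550423 in the high-score set, with a median of 11550598, and 8585010 to 22542235 in the low-score set, with a median of 17116089. The TMM scaling factors, which are low where a few genes take many reads, were 0.46 to 1.10 and 0.99 to 1.48. Without them the median log2 fold change of all tested genes moved from -0.02 to -0.51, and changes are given relative to the TMM scale. In the low-score set, LY cow 12 stood apart by its cytokine genes and HY cow 1 by its plasma cell genes, and several list medians are given below without them. Each library is 1 cow.

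The first question was whether the cows of both sets differed in the recorded traits. None of 7 traits differed between the sets in a two-sided exact permutation test that ran through every choice of 7 among the 14 cows, with p-values adjusted over 8 tests. The breeding value of milk yield was 23.7 ± 222 (SD, n = 7) in the high-score set and 195.6 ± 239.6 (SD, n = 7) in the low-score set, with exact p = 0.185 and adjusted p = 0.688. Time in lactation differed by -8.29 days (exact p = 0.850), and parity had the same mean of 2.57 in both sets (exact p = 1). Fat, protein and solids values gave exact p = 0.275, 0.297 and 0.379, and total counts gave 0.430. The split of HY and LY cows gave p = 1 by Fisher's exact test. Over all 9 HY and 12 LY cows the median score was 0.47 and 0.62, with p = 0.486 in an exact permutation test. As a continuous value over the 21 cows, the score had a Pearson r between -0.23 and 0.29 with the 7 measures, and the lowest adjusted p was 0.516 by permutation. For milk yield value, r was -0.23 (permutation p = 0.312), Spearman rho was -0.31 (permutation p = 0.168), and r without the 2 cows farthest from the median was -0.07. Between these sets, which were chosen to differ in cell markers, no difference in yield, stage or parity was detected.

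Of 9622 genes tested with edgeR's quasi-likelihood test, 0 (0.0%) passed an adjusted p of 0.05, and the lowest adjusted p was 0.0667. At an unadjusted p under 0.05, 1037 genes (10.8%) were higher and 818 (8.5%) lower in the high-score set. DESeq2 called 800 genes, 541 (5.62%) higher and 259 (2.69%) lower. The edgeR fit with the score as a continuous term over all 21 cows called 241 genes, 124 (1.29%) higher and 117 (1.22%) lower with rising score, and 148 genes were shared by both of these calls. Leaving out 1 cow at a time gave 0 genes for 10 of the 14 cows, but 481 without HY cow 7, 163 without LY cow 4, 156 without LY cow 11 and 3 without LY cow 12. HY cow 7 and LY cow 4 are the high-score libraries with the least milk protein counts. With the milk protein share as a covariate the number was 0, with 1143 genes under an unadjusted p of 0.05. Because the libraries were chosen by expression, these numbers describe the 14 libraries and are not an independent test of a difference between cell types. Below, a gene is said to have passed only with the tool that called it, and all adjusted p-values are over the genes tested.

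Genes of neutrophils other than the S100 genes differed in direction. Of 21 tested, 13 were higher and 8 lower in the high-score set. Their median log2 fold change was 0.17, beside -0.02 over all genes. With library totals it was -0.04, beside -0.51. At an unadjusted p under 0.05, 3 were higher and 1 lower, beside 10.8% and 8.5% of all genes. DESeq2 called 1 in each direction, beside 5.62% higher and 2.69% lower of all genes. The continuous score called 1 higher and 0 lower, beside 1.29% and 1.22% of all genes. Without LY cow 12 the median was 0.48. CXCR2, the receptor through which neutrophils follow interleukin 8, was 302 to 3227 CPM with a median of 1118, against 127 to 1875 with a median of 641. The log2 fold change was 0.88 ± 0.55 (SE, n = 7 and 7) with an adjusted p of 0.394 by edgeR, and 2 high-score libraries were above all low-score ones. TREM1, which amplifies inflammatory signalling in neutrophils and monocytes, was 200 to 1408 CPM with a median of 529.6, against 119 to 472 with a median of 338. It was called with the continuous score (adjusted p = 0.0349, edgeR), at a log2 slope of 0.62 per score unit, and not by edgeR between the sets (adjusted p = 0.238).

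ITGAM, the alpha chain of the integrin CD11b that neutrophils and macrophages both carry, went the other way. It was 74.1 to 495 CPM with a median of 179 in the high-score set and 325 to 1019 with a median of 644 in the low-score set. At a log2 fold change of -1.45 ± 0.38, it had an adjusted p of 0.0698 by edgeR and 0.00477 by DESeq2, and 6 of 7 high-score libraries lay below all low-score ones. LTF, the iron-binding lactoferrin of neutrophil granules, is also made by mammary epithelium. It was 87.9 to 3675 CPM with a median of 518, against 15.3 to 252 with a median of 117, and DESeq2 called it at an adjusted p of 5.7e-04. Its highest level was in HY cow 8 and its lowest among the high-score cows in HY cow 7, the libraries with the most and the least milk protein counts. The log2 fold change of 2.98 ± 0.73 was 1.37 with the milk protein share as covariate. MMP9, the gelatinase of neutrophil granules, had medians of 67.2 and 58.0 CPM and an adjusted p of 0.552 by edgeR. MPO, the myeloperoxidase stored in granules during neutrophil development, stayed at or below 7.30 CPM in all 14 libraries.

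Of 20 antimicrobial genes in the files, 10 had enough counts to be tested. Their median log2 fold change was 0.57, and -0.20 with library totals, beside -0.02 and -0.51 over all genes. DESeq2 called 3 higher and 0 lower, beside 5.62% and 2.69% of all genes. The median was 0.09 with the milk protein share as covariate, 0.13 in the 8 libraries with under 10% milk protein counts and 0.12 without HY cow 8. The cathelicidins CATHL1, CATHL2 and CATHL4, stored in granules of bovine neutrophils, did not exceed 1.71 CPM in any of the 14 libraries and were not tested. The 3 called genes were LPO, LAP and CATHL5. LPO, the lactoperoxidase that mammary epithelium secretes, was 0.375 to 1158 CPM with a median of 100.3, against 0.784 to 31.6 with a median of 6.21. LAP, the lingual antimicrobial peptide, a beta-defensin of bovine epithelia, was 3.91 to 78.0 CPM against 1.11 to 6.55, with a log2 fold change of 2.50 ± 0.65 (DESeq2 adjusted p = 0.00234). With the milk protein share as covariate LAP kept a log2 fold change of 2.65, while LPO went from 4.80 to 1.20. The most counted members, LYZ and DEFB5, had log2 fold changes of -0.39 ± 0.34 and -0.65 ± 0.46, with adjusted p of 0.556 and 0.469 by edgeR.

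Macrophage genes were lower in nearly the whole list. Of 21 tested genes, 20 were lower in the high-score set, with a median log2 fold change of -0.74. At an unadjusted p under 0.05, 9 were lower and 1 higher, beside 8.5% and 10.8% of all genes. DESeq2 called 4 lower and 0 higher, beside 2.69% and 5.62%. The median was -0.78 with the milk protein share as covariate and -0.75 in the 8 libraries with under 10% milk protein counts, 2 high-score and 6 low-score. CD163, CD68 and CSF1R, which chose the libraries, are not in these numbers, but the listed genes are expressed in the same cells and the direction is no independent result.

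The complement C1q genes, which macrophages make and which tag dying cells for uptake, held 2 of these 4 calls. C1QC was 2.54 to 20.1 CPM with a median of 9.13 in the high-score set and 16.4 to 60.9 with a median of 42.1 in the low-score set. Its log2 fold change was -1.96 ± 0.42, with an adjusted p of 0.0667 by edgeR, 3.8e-04 by DESeq2 and 0.0237 with the continuous score, and 6 of 7 high-score libraries were below all low-score ones. C1QB was 5.18 to 37.3 CPM against 24.7 to 82.5, at -1.43 ± 0.41 (DESeq2 adjusted p = 0.0116). C1QA had the same sign, at -1.16 ± 0.47, and did not pass with DESeq2 (adjusted p = 0.0965). The 3 chains of C1q thus had lower medians together, and the libraries of the sets overlapped for each.

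VSIG4, a complement receptor of resident macrophages, was 57.0 to 166 CPM against 89.9 to 375, with an adjusted p of 0.0176 by DESeq2. CLEC7A, the beta-glucan receptor dectin-1, was 6.55 to 27.7 CPM against 11.4 to 90.4, with an adjusted p of 0.0285 by DESeq2. F13A1, a coagulation factor made by macrophages, was called with the continuous score (adjusted p = 0.0419, edgeR). The lipopolysaccharide receptor CD14 was 108 to 1008 CPM with a median of 349.5, against 476 to 1247 with a median of 759. At -1.05 ± 0.41 it did not pass with edgeR (adjusted p = 0.170), although 6 of 7 high-score libraries lay below all low-score ones. MSR1, a scavenger receptor, and MERTK, which takes up dying cells, had log2 fold changes of -0.62 ± 0.34 and -0.91 ± 0.35. CCL2, the monocyte chemoattractant and the most counted member, had medians of 1986 and 1937 CPM and a log2 fold change of -0.02 ± 0.44. SPI1, the transcription factor PU.1 that both cell types need, was the 1 member with a higher level in the high-score set, at 0.71 ± 0.30 (edgeR adjusted p = 0.209).

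**Figure D2:**
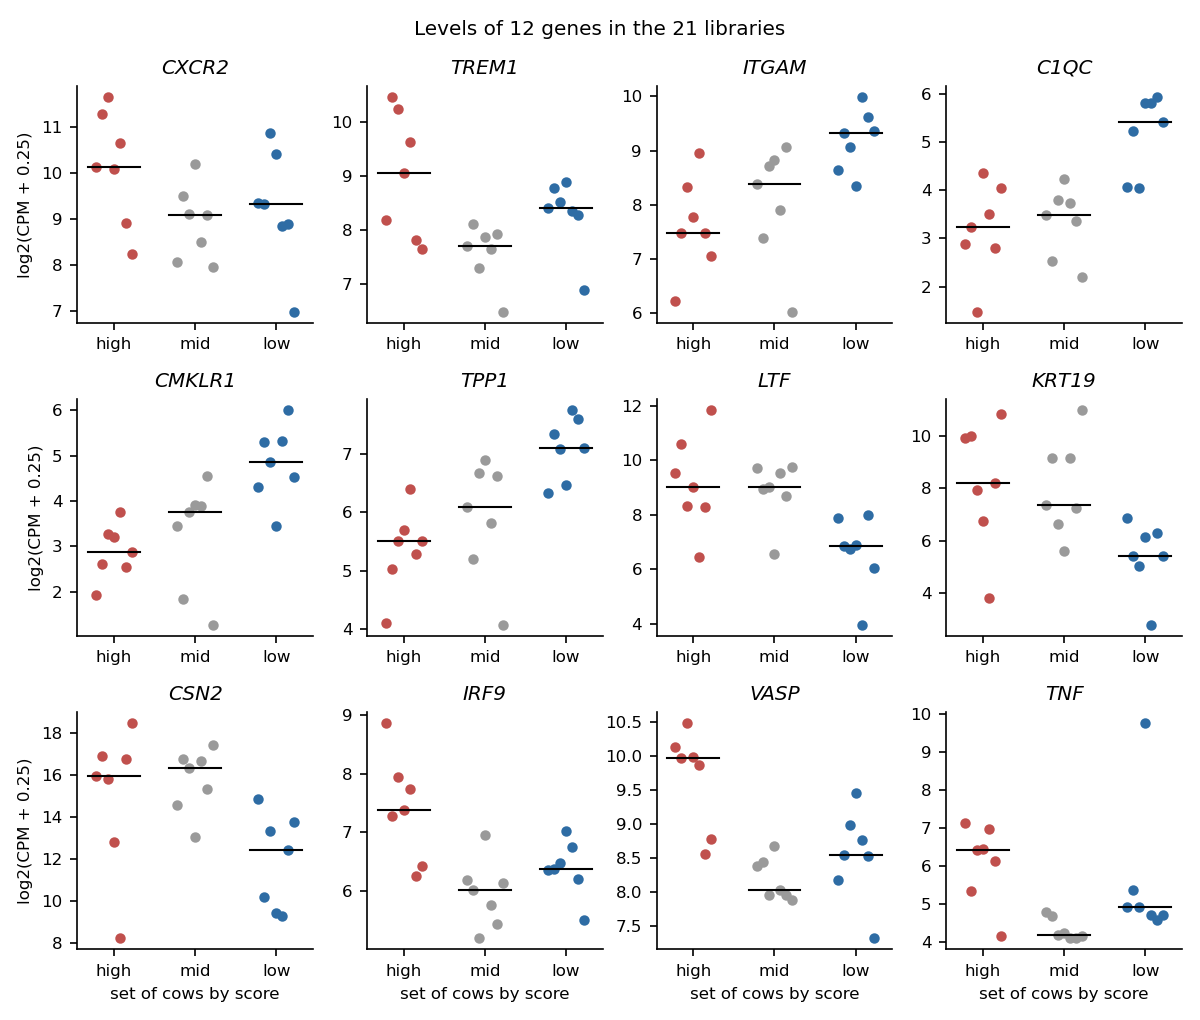
Levels of 12 genes in the 21 libraries on a log2(CPM + 0.25) scale, with TMM-scaled CPM. Each point is 1 cow, in red for the 7 high-score, grey for the 7 middle and blue for the 7 low-score libraries, and the line is the median. C1QC, CMKLR1 and TPP1 have their highest median in the low-score set and LTF, KRT19 and CSN2 their lowest, and TNF has 1 low-score library, LY cow 12, far above the other 6.

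Lysosomal genes, which digest what a phagocyte takes up, had a median log2 fold change of -0.53 over 31 tested, with 26 below 0. At an unadjusted p under 0.05, 6 were lower and 2 higher, beside 8.5% and 10.8% of all genes. DESeq2 called 2 lower and 1 higher, beside 2.69% and 5.62%. GLA, an alpha-galactosidase, was 16.3 to 64.6 CPM against 26.8 to 133.5, at -1.43 ± 0.37 (DESeq2 adjusted p = 0.00756). ASAH1, the acid ceramidase, was 98.8 to 193 CPM against 96.6 to 393, and passed with DESeq2 (adjusted p = 0.0286) and with the continuous score (adjusted p = 0.0447, edgeR). CTSL2, a cathepsin, had medians of 28.0 and 8.93 CPM in the high-score and low-score sets, with an adjusted p of 0.0157 by DESeq2. The most counted members, the cathepsins CTSB and CTSD, had log2 fold changes of -0.58 ± 0.43 and -0.52 ± 0.42. In the 8 libraries with under 10% milk protein counts, 2 high-score and 6 low-score, the median of the list was 0.08. TPP1, a lysosomal peptidase that was outside the list and was chosen after its values were seen, was 16.8 to 83.8 CPM with a median of 45.1, against 80.5 to 216 with a median of 137. At a log2 fold change of -1.69 ± 0.32, it had an adjusted p of 0.0667 by edgeR, 1.2e-04 by DESeq2 and 0.0165 with the continuous score.

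Among 21 lipid and foam cell genes the median log2 fold change was -0.13. ABCA1, which exports cholesterol from macrophages, was 4.42 to 84.7 CPM with a median of 22.7, against 64.0 to 466 with a median of 98.7, and passed with DESeq2 (adjusted p = 0.0109). FABP3, a fatty acid binding protein of the lactating gland, went the other way, from 59.8 to 963 CPM in the low-score set to 75.4 to 12140 in the high-score set. Its log2 fold change was 3.74 ± 0.91 (DESeq2 adjusted p = 2.6e-04), and it was 1.11 with the milk protein share as covariate. The most counted members were SPP1, or osteopontin, with 0.10 ± 0.53, and CD36, a fatty acid translocase, with -0.19 ± 0.31.

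All 13 tested genes of antigen presentation by MHC class II had negative log2 fold changes, from -1.05 to -0.24, with a median of -0.46. At an unadjusted p under 0.05, 0 of them passed in edgeR, beside 10.8% higher and 8.5% lower of all genes. DESeq2 called 0, beside 5.62% and 2.69%. CD74, the invariant chain, had medians of 2544 and 2862 CPM and a log2 fold change of -0.44 ± 0.40. BOLA-DRB3, the polymorphic beta chain of cattle, was 152 to 935 CPM against 328 to 957, at -0.24 ± 0.37. Reads of the polymorphic BOLA genes may be shared among near copies, so single values there are uncertain.

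Of 26 T and cytotoxic lymphocyte genes, 19 were below 0, with a median log2 fold change of -0.31, and DESeq2 called 3 lower and 0 higher, beside 2.69% and 5.62% of all genes. The median was -0.04 without LY cow 12 and -1.07 without LY cow 6. With the milk protein share as covariate it was -0.67, and in the 8 libraries with under 10% milk protein counts -1.17. IL7R, the interleukin 7 receptor of resting T cells, was 4.70 to 124 CPM with a median of 21.8, against 92.7 to 253 with a median of 148. Its log2 fold change was -1.70 ± 0.58 (DESeq2 adjusted p = 0.0397), and 6 of 7 high-score libraries lay below all low-score ones. The T cell receptor chain CD3D did not follow it, with medians of 28.2 and 62.5 CPM and -0.34 ± 0.65 (edgeR adjusted p = 0.810). GNLY, a granulysin of cytotoxic cells, had medians of 4.92 and 7.88 CPM and passed with DESeq2 (adjusted p = 0.00550), with 79.9 CPM in 1 low-score library. gzmA, a granzyme, passed with DESeq2 (adjusted p = 0.0473) at levels up to 8.23 CPM. CCL5, the most counted member, had a log2 fold change of 0.75 ± 0.54, and NKG7, a protein of cytotoxic granules, one of -0.71 ± 0.33 with an adjusted p of 0.249 by edgeR.

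The 10 B cell genes had a median log2 fold change of -0.85, which rested on 1 library. Without HY cow 1 the median was 0.18. IGJ, the joining chain of secreted antibodies, was 181 CPM in HY cow 1 and 2.46 to 9.06 in the other 6 low-score cows, against 2.89 to 8.76 in the high-score set. MZB1 and POU2AF1, which plasma cells and B cells need, were 22.9 and 55.6 CPM in HY cow 1 and at most 0.808 and 3.30 in the other low-score cows. CR2, the complement receptor of B cells, had medians of 18.2 and 22.9 CPM and a log2 fold change of 0.03 ± 0.54.

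The largest shift among the 23 lists was that of mammary epithelial genes. Of 28 tested, 27 were higher in the high-score set, with a median log2 fold change of 2.49. At an unadjusted p under 0.05, 25 were higher and 0 lower, beside 10.8% and 8.5% of all genes. DESeq2 called 19 higher and 0 lower, beside 5.62% and 2.69%. The beta-casein gene CSN2 was 301 to 365000 CPM with a median of 63570, against 629 to 30280 with a median of 5584, at 3.54 ± 1.16 (DESeq2 adjusted p = 0.00466). The alpha-S1-casein gene CSN1S1 had medians of 89750 and 4560 CPM, with 5 of 7 high-score libraries above all low-score ones. KRT19, a keratin of luminal cells, was 13.9 to 1826 CPM against 6.61 to 118, at 3.52 ± 0.80, and EPCAM, an epithelial adhesion molecule, was 6.76 to 147 CPM against 0.735 to 23.3. MUC1 and PIGR, the membrane mucin and the receptor that carries antibodies into milk, had log2 fold changes of 4.12 ± 0.98 and 3.99 ± 0.94.

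The milk protein share is made of 7 genes of this list, and its part in the levels of the other genes was not tested. With the share as covariate the median of the list was 0.76 and that of CSN2 was 0.20. In the 8 libraries with under 10% milk protein counts the list had a median of 0.12 and CSN2 a log2 fold change of -0.53. With the continuous score, 0 of the 28 genes were called, beside 1.29% higher and 1.22% lower of all genes. The median milk protein share was 30.8% in the high-score set, 29.8% in the middle cows and 2.21% in the low-score set, so the middle cows were close to the high-score set in this measure.

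**Figure D3:**
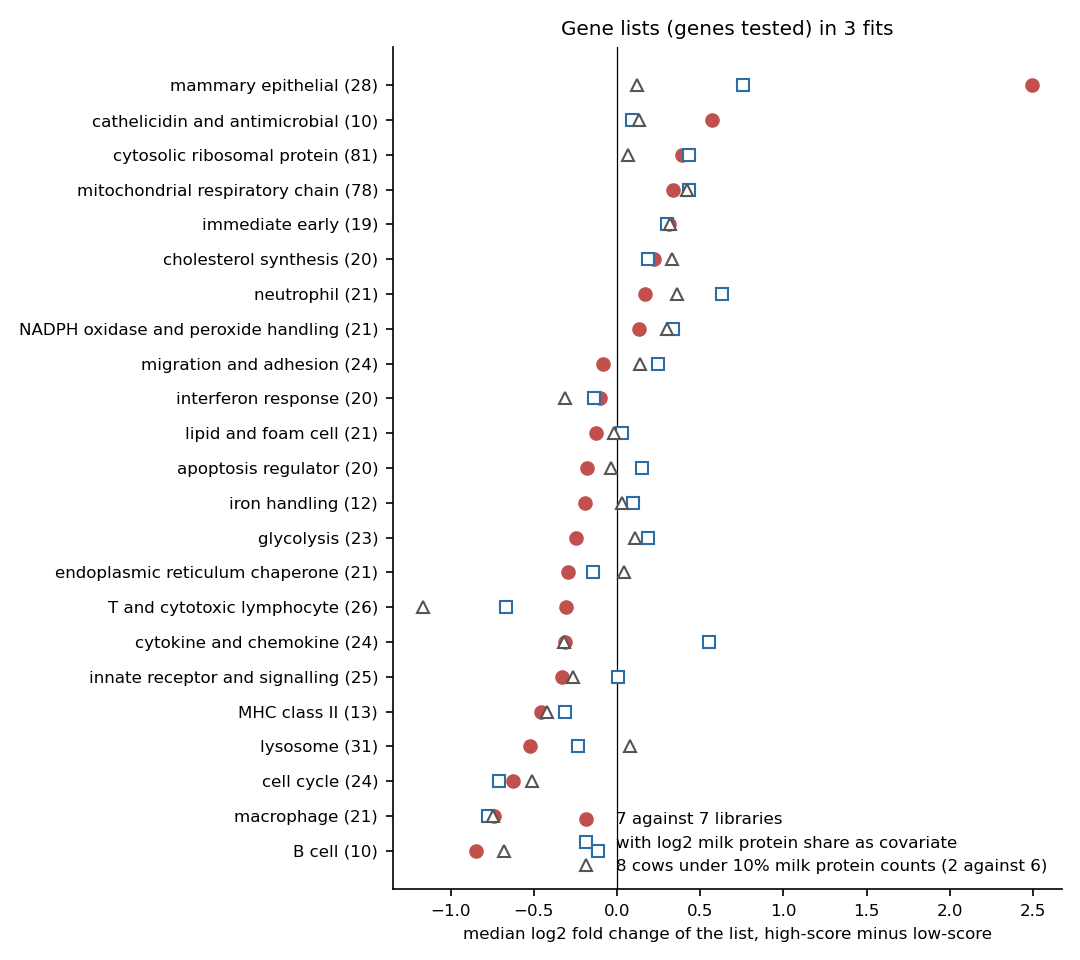
Median log2 fold change (high-score minus low-score) of 23 gene lists, with the number of genes tested in brackets. Filled circles are the fit of 7 against 7 libraries, open squares the fit with the log2 milk protein share as covariate, and open triangles the 8 libraries with under 10% milk protein counts. The mammary epithelial list goes from 2.49 to 0.76 and 0.12, while the macrophage list stays between -0.78 and -0.74.

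Cytokine and chemokine genes showed how 1 library can set a result. The median log2 fold change of 24 genes was -0.32, and it was 0.78 without LY cow 12. In that library 19 of the 24 genes had their highest level among the low-score cows, and 18 their highest level among all 14. The same count over all genes is not given here. Without LY cow 12 the median log2 fold change of all genes was 0.03. TNF, the tumour necrosis factor, was 871 CPM in LY cow 12 and 23.6 to 41.3 in the other 6 low-score cows, against 17.7 to 140.3 with a median of 84.8 in the high-score set. The edgeR log2 fold change was -0.89 ± 0.82 with all cows and 1.46 without LY cow 12. DESeq2, which replaces single outlying counts, gave 1.30 with an adjusted p of 0.0174. IL1B was 12820 CPM in LY cow 12 and 126 to 1552 in the other low-score cows, against 308 to 3908 in the high-score set. IL8, the main neutrophil chemoattractant, was 13740 CPM in LY cow 12, 227 to 2847 in the others and 116 to 6882 in the high-score set. CSF3, which drives the release of neutrophils from marrow, was 142 CPM there and at most 11.1 in the other 13. IL1RN, the interleukin 1 receptor antagonist and the most counted member, had medians of 6839 and 3981 CPM and a log2 fold change of 0.21 ± 0.66. IL18 had an unadjusted p under 0.05 at 0.93 ± 0.38, and its adjusted p was 0.188 by edgeR.

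Innate receptors and their signalling had a median log2 fold change of -0.33 over 25 genes, and -0.02 without LY cow 12. DESeq2 called 0 of them, beside 5.62% higher and 2.69% lower of all genes. NFKBIA, the inhibitor of NF-kappa B, and MYD88, the adaptor of Toll-like receptors, had log2 fold changes of 0.54 ± 0.55 and 0.47 ± 0.40. The interferon list had a median of -0.10 over 20 genes, with 4 higher and 0 lower at an unadjusted p under 0.05, beside 10.8% and 8.5% of all genes. IRF9, a subunit of the factor that turns on interferon-stimulated genes, was 75.9 to 466 CPM with a median of 166, against 44.9 to 129 with a median of 83.0. Its log2 fold change was 1.21 ± 0.36, and it passed with DESeq2 (adjusted p = 0.0238) and with the continuous score (adjusted p = 0.0108, edgeR). XAF1, an interferon-stimulated gene linked to apoptosis, was 54.4 to 264 CPM against 42.1 to 72.2 and passed with DESeq2 (adjusted p = 0.0260) and with the continuous score (adjusted p = 0.00442, edgeR). ISG15, a ubiquitin-like protein that interferon induces, had a log2 fold change of 0.91 ± 0.46 and did not pass with edgeR (adjusted p = 0.284).

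Genes of migration and adhesion had a median of -0.09 over 24 tested, and 0.16 without LY cow 12. VASP, which binds actin at the leading edge of moving cells, was 379 to 1431 CPM with a median of 1003, against 159.9 to 705 with a median of 373. It passed with DESeq2 (adjusted p = 0.0218) and with the continuous score (adjusted p = 0.0108, edgeR), and 5 of 7 high-score libraries were above all low-score ones. C3AR1, the receptor of the complement fragment C3a, had medians of 14.9 and 29.8 CPM and passed both, at adjusted p of 0.0486 by DESeq2 and 0.0363 with the continuous score. The homing receptors CXCR4 and CD44 had log2 fold changes of 0.43 ± 0.42 and -0.11 ± 0.36. Immediate early genes had a median of 0.31 over 19, and -0.18 with library totals, beside -0.02 and -0.51 over all genes. DUSP1 and ZFP36, which damp inflammatory signals, were at 0.53 ± 0.54 and 0.52 ± 0.44.

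Metabolic lists had medians near 0. The NADPH oxidase and peroxide list had a median of 0.13 over 21 genes, and -0.38 with library totals, beside -0.02 and -0.51 over all genes. DESeq2 called 0 of them, beside 5.62% higher and 2.69% lower of all genes. SOD2 was at 0.66 ± 0.51 and PRDX1 at -0.17 ± 0.32. Glycolytic genes had a median of -0.25 over 23, and -0.03 without LY cow 12. PYGL, the glycogen phosphorylase of liver and leucocytes, was 89.7 to 185 CPM with a median of 142, against 126 to 379.6 with a median of 360.4. At -1.17 ± 0.27 it had an adjusted p of 0.0667 by edgeR, 0.00144 by DESeq2 and 0.0231 with the continuous score. HK1, a hexokinase, passed with DESeq2 (adjusted p = 0.0329), at medians of 111 and 227 CPM. The glucose transporter SLC2A3 and the enolase ENO1 had log2 fold changes of 0.58 ± 0.53 and -0.40 ± 0.38.

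In iron handling, the transferrin receptor TFRC was 8.68 to 55.8 CPM with a median of 21.9, against 24.9 to 231 with a median of 110.2, and passed with DESeq2 (adjusted p = 0.00356). Ferritin heavy chain FTH1 and the phagosomal iron exporter SLC11A1 had log2 fold changes of -0.14 ± 0.41 and -0.36 ± 0.28. The median of 12 genes was -0.19. The 20 genes of cholesterol synthesis had a median of 0.22, and -0.29 with library totals, beside -0.02 and -0.51 over all genes. DESeq2 called 2 of them higher, IDI1 and INSIG1, and 1 lower, beside 5.62% and 2.69% of all genes. INSIG1, which holds back the synthesis, had medians of 153 and 109 CPM. HMGCS1 and MSMO1, enzymes of the pathway, had log2 fold changes of 0.24 ± 0.34 and 0.62 ± 0.34.

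Of 24 cell cycle genes, 22 were lower in the high-score set, with a median log2 fold change of -0.63 and 5 lower at an unadjusted p under 0.05, beside 8.5% of all genes. DESeq2 called 1 lower, beside 2.69% of all genes, MCM6, a subunit of the replicative helicase, at medians of 21.6 and 46.5 CPM (adjusted p = 0.0477). The kinase CDK1 was 1.60 to 12.2 CPM against 3.14 to 69.9, at -1.54 ± 0.57 (edgeR adjusted p = 0.156). PCNA, the sliding clamp of DNA replication, and CDKN1A, an inhibitor of the cycle, did not share the sign, at 0.23 ± 0.26 and 0.39 ± 0.58. The apoptosis regulators had a median of -0.18 over 20 genes, and -0.002 without LY cow 12, with MCL1, a survival factor of neutrophils, at 0.55 ± 0.40 and BIRC3 at 0.63 ± 0.57. The chaperones of the endoplasmic reticulum had a median of -0.30 over 21, with CALR at -0.55 ± 0.31 and ATF4 at 0.65 ± 0.38. DDIT3, a transcription factor of the stress response in the same list, was called with the continuous score as higher with rising score (adjusted p = 0.0183, edgeR).

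The 2 largest lists had medians slightly above 0 on the TMM scale. Of 81 cytosolic ribosomal protein genes 72 were above 0, with a median log2 fold change of 0.39, and 17 were higher and 0 lower at an unadjusted p under 0.05, beside 10.8% and 8.5% of all genes. DESeq2 called 7 of them higher, beside 5.62% of all genes. Of 78 genes of the mitochondrial respiratory chain 67 were above 0, with a median of 0.34. At an unadjusted p under 0.05, 18 of these 78 were higher and 0 lower, beside 10.8% and 8.5% of all genes. DESeq2 called 5 of them higher and 0 lower, beside 5.62% and 2.69% of all genes. RPS27L was 8.63 to 69.6 CPM against 6.12 to 13.1, at 1.87 ± 0.41 (DESeq2 adjusted p = 8.4e-04). NDUFA4, a small subunit of the chain, was 76.3 to 407 CPM against 64.0 to 135, with an adjusted p of 0.0164 by DESeq2. RPSA, a highly counted ribosomal gene, had a log2 fold change of 0.48 ± 0.42, and the ATP synthase genes ATP5B and ATP5A1 had -0.13 ± 0.25 and 0.05 ± 0.24. With library totals in place of TMM both medians were negative, at -0.18 and -0.19, beside -0.51 over all genes. The sign of both medians thus depends on the scaling, while both lay above the median of all genes on either scale. Ribosomal protein genes have many near-identical pseudogenes, and their counts are uncertain to that extent.

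The levels of 44 genes did not overlap between the sets, 17 (0.177%) higher and 27 (0.281%) lower in the high-score set, and none of these belongs to a list above. The symbol of 1 of the lower genes had turned into a date. They were chosen after their values were seen. H3F3A, which encodes histone H3.3, was 235 to 568 CPM with a median of 304, against 104 to 187 with a median of 123. The difference was 1.45 ± 0.26 on the log2 scale, with an adjusted p of 0.0667 by edgeR and 7.7e-05 by DESeq2. SFN, the epithelial 14-3-3 sigma, was 6.51 to 32.1 CPM against 2.64 to 4.76, at 1.94 ± 0.39. PTS, an enzyme of tetrahydrobiopterin synthesis, was 7.38 to 25.9 CPM against 4.40 to 7.004.

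RBX1 and SKP1, subunits of cullin-RING ubiquitin ligases, were 31.3 to 89.0 CPM against 16.2 to 28.4, and 21.1 to 38.0 against 11.2 to 18.0. MED21, a Mediator subunit, was 29.6 to 60.6 CPM against 18.1 to 29.5. SRSF3, a splicing factor, was 183 to 245 CPM against 135.5 to 171, at 0.42 ± 0.18. The other 10 higher genes were CRTAC1, NOL7, PAIP1, PRKAB1, SS18L2, ZNF706, EIF1B, RAB2A, EXOSC3 and SPATA2, and CRTAC1 stayed at or below 19.99 CPM.

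Among the lower genes, HIP1, which links clathrin to actin, was 2.41 to 17.9 CPM with a median of 8.94, against 17.9 to 43.4 with a median of 34.0. At a log2 fold change of -1.86 ± 0.36, it had an adjusted p of 0.0667 by edgeR, 1.3e-04 by DESeq2 and 0.0168 with the continuous score. SMPD3, a neutral sphingomyelinase, was 2.63 to 13.3 CPM against 15.9 to 30.7, at -1.71 ± 0.34. EIF2C1, an Argonaute protein of microRNA silencing, was 0.687 to 6.24 CPM against 9.20 to 20.5, at -2.20 ± 0.45. LIMD1, a scaffold of the same pathway, was 0.687 to 12.6 CPM against 14.9 to 28.2.

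The glycosyltransferases ST3GAL1 and GALNT6, which build O-linked sugars, were 2.63 to 11.6 CPM against 12.7 to 30.5, and 3.44 to 27.4 against 29.3 to 71.8. MBNL3, a splicing regulator, reached 0.2502 CPM in the high-score set and 2.10 in the low-score set, close to the level that a count of 0 allows. The number of non-overlapping genes was 67 with library totals, 2 higher and 65 lower, so the balance of direction in this count also depends on the scaling.

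The continuous score called genes beyond those above. NFE2, a transcription factor of blood cells, was 79.2 to 700 CPM with a median of 149, against 16.8 to 138 with a median of 85.5 (adjusted p = 0.0108, edgeR, continuous score). BCL6, a transcriptional repressor that mature neutrophils express, was 64.9 to 661 CPM against 96.0 to 307 (adjusted p = 0.0183). MME, a neutral endopeptidase on the surface of mature neutrophils, was 0.751 to 13.3 CPM against 0.686 to 3.02 (adjusted p = 0.0352). SERPINB8, a protease inhibitor, and SAG, an arrestin, shared the lowest adjusted p of 0.00385 with MS4A8B. They had medians of 11.5 against 3.69 CPM, 40.2 against 10.3 CPM and 184 against 67.2 CPM. The middle cows had medians of 61.0 CPM for NFE2, 209.7 for TREM1 and 53.8 for XAF1, all below those of the low-score set, so these levels did not increase steadily along the score. These genes were chosen after their values were seen.

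On the other side, CMKLR1, the chemerin receptor of macrophages, was 3.55 to 13.3 CPM with a median of 7.15, against 10.6 to 63.8 with a median of 28.9. At a log2 fold change of -2.06 ± 0.38, it had an adjusted p of 0.0667 by edgeR, 7.1e-05 by DESeq2 and 0.0245 with the continuous score. MAF, a transcription factor of macrophages, was 1.49 to 26.0 CPM against 13.2 to 49.1, and CD180, a Toll-like receptor relative, was 3.13 to 14.8 against 8.37 to 87.9, with adjusted p of 0.0366 and 0.0316 by edgeR with the continuous score. NRP2, a semaphorin receptor that macrophages express, had medians of 67.4 and 298.5 CPM (adjusted p = 0.0371, edgeR). VCAM1, an adhesion molecule, had medians of 3.40 and 22.9 CPM and a log2 fold change of -3.23 ± 0.71, and was called by DESeq2 (adjusted p = 2.6e-04) but not with the continuous score (adjusted p = 0.0742).

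**Figure D4:**
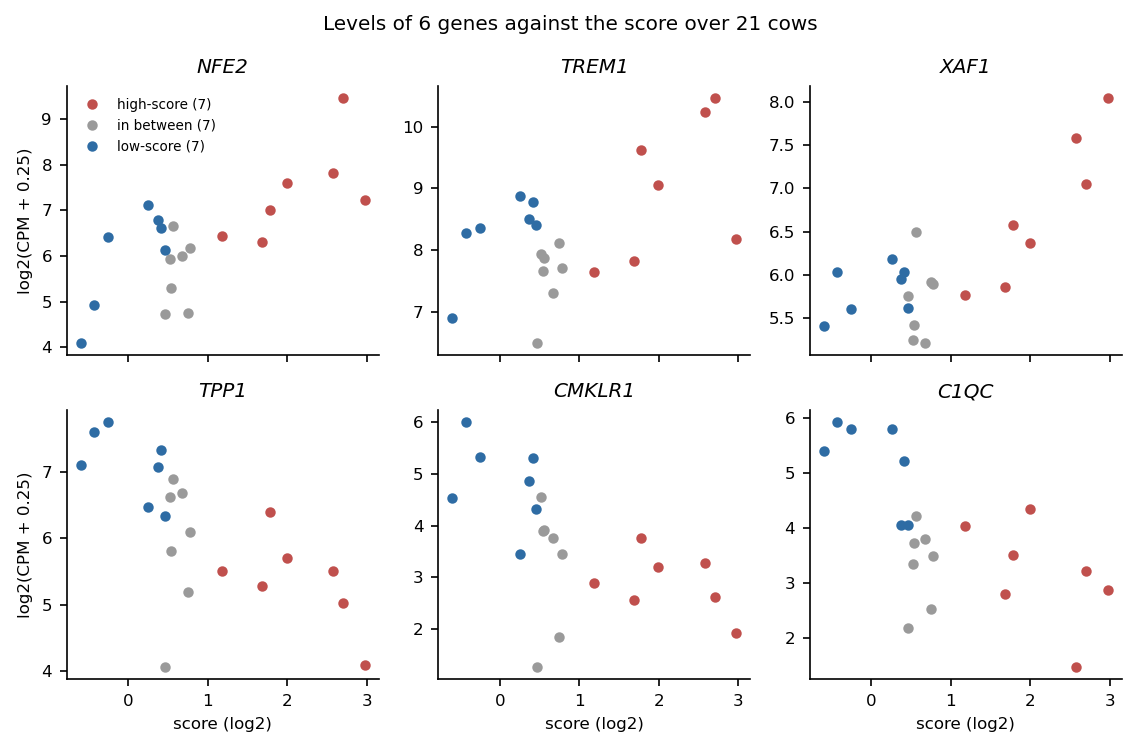
Levels of 6 genes, log2(CPM + 0.25) with TMM-scaled CPM, against the score in log2 units over the 21 cows, coloured as high-score (red), middle (grey) and low-score (blue). NFE2, TREM1 and XAF1 have their highest levels among the high-score cows and TPP1, CMKLR1 and C1QC theirs among the low-score cows, and the levels of the middle cows overlap with both sets in each plot.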

How the data were processed

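RNA-seq of milk somatic cells was analysed for 21 Holstein cows. The authors trimmed reads with Trimmomatic, mapped them to bosTau7 with Bowtie2 and TopHat2, used SAMtools, and deposited HTSeq counts per gene and cow, not normalized. Tool versions are not given in the sources used here. The tables hold 13570 gene rows, of which 23 carry a date as symbol. A row without a name (0.036% to 0.139% of the counts in both sets) and the HTSeq summary lines were left out. Strand use in counting is not given, so overlapping genes are uncertain.

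The libraries, the gene lists and the alternatives added later were chosen with earlier results of these data known. Alternatives chosen after seeing the data were the milk protein share as covariate, the libraries with under 10% milk protein counts, the marker check without LTF, the counts at an unadjusted p and the left-out cows for lists and non-overlapping genes. Genes with a mean of at least 10 counts over the 21 cows entered the edgeR 4.0.16 quasi-likelihood test of the 14 cows (R 4.3.3), without covariates. TMM factors were computed over all 21 cows, and p-values were adjusted by Benjamini-Hochberg. The SE of a log2 fold change is its absolute value divided by the square root of the quasi-likelihood F statistic. DESeq2 1.42.0 was an alternative. The CPM of the score, of the 6 scoring genes and of the limits for a count of 0 use the total counts. All other CPM, and the edgeR test, use TMM-scaled library sizes. Before log2 of a CPM value, 0.25 was added. The slope of the continuous fit is the log2 change per score unit over 21 cows. Traits were tested by exact permutation (scipy 1.17.1), correlations by 100000 permutations.

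Named genes were to be the 12 largest called changes in each direction with no overlap, of which there were none, then in each list up to 3 called members per direction and the 2 most counted uncalled members, and the cell type markers. A few genes under this rule, 1 neutrophil marker among them, are not reported here. Genes called by DESeq2 or by the continuous score, and other genes outside this rule, were chosen after their values were seen. The edgeR step was tested on simulated data. All 210 pairs of libraries differed by more than sampling noise, with a lowest chi-square per degree of freedom of 38.0. No genome of the build was used, so no coordinates or sequences are given.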

Additional observations from a re-analysis of the deposited data

Results flagged for a closer look

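A library was noted when it lay far from the other 6 of its set, that is when its gap to the nearest library exceeded Dixon's 95% critical value for 7 samples as a share of the range of the set, on the log2 scale for genes. Of 258 sets of values tested for the named genes, traits and milk protein share, 15 met this, and chance alone gives about 1 in 20.

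LY cow 12 of the low-score set accounted for 7 of them. Its TNF and CSF3 were far above the other low-score cows, with gaps of 0.846 and 0.720 of the range. It was far below them in NRP2 (0.661), ATP5A1 (0.648), GLA (0.602), PYGL (0.594) and ZNF706 (0.575). TNF in this library was 871 CPM beside a median of 29.9 in the set.

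LY cow 2, the cow with the highest score, was far below the other high-score cows in ST3GAL1 (0.717) and GALNT6 (0.626), and far above them in EXOSC3 (0.712). The sialyltransferase ST3GAL1 was 2.63 CPM there beside a median of 9.38.

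The remaining 5 were single genes. IGJ was high in HY cow 1 (0.707), TREM1 was low in HY cow 5 (0.692), and ABCA1 was high in HY cow 2 (0.630), all in the low-score set. CTSD was high in HY cow 7 (0.664) and SPI1 low in LY cow 6 (0.612), both in the high-score set.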

How the results depend on the processing

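The number of genes called by edgeR was 0 with RLE factors, with library totals, with all 12142 genes that had a count, with a mean of at least 100 counts, with the yield group as covariate, in LY cows alone, with 5 against 5 cows, with the milk protein share as covariate and in the 8 libraries with under 10% milk protein counts. It was 1 with parity and lactation period as covariates, 241 with the continuous score and 800 with DESeq2. Without single cows it was 0 to 481. Genes at an unadjusted p under 0.05 numbered 1855, but 2868 with library totals (366 higher and 2502 lower, against 1037 and 818), 1143 with the milk protein covariate, 601 in the libraries low in milk protein and 579 in LY cows alone. Non-overlapping genes numbered 67 with library totals and 259 with 5 against 5 cows, and 45 to 193 with each cow left out, the highest without LY cow 12, HY cow 7 (155), LY cow 6 (125), LY cow 11 (99) and LY cow 4 (74). Fewer cows per set allow more such genes by construction.

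With library totals the list medians were -0.20 for antimicrobial, -1.27 for macrophage, -0.71 for lipid, -0.97 for lysosome, -0.92 for MHC class II, -0.38 for NADPH oxidase, -0.66 for glycolysis, -0.68 for iron, -0.29 for cholesterol, -0.19 for respiratory chain, -0.18 for ribosomal and -0.79 for chaperone genes. Over all genes the median was -0.51 with library totals, beside -0.02 with TMM. In the libraries low in milk protein the list medians were 0.08 for lysosome, 0.12 for mammary epithelial and 0.04 for chaperone genes. With the milk protein covariate they were 0.76 for mammary epithelial and 0.18 for glycolysis genes. With each cow left out, the B cell median was -1.15 to 0.18 and the cytokine median -0.54 to 0.78. For 8 of the 23 lists the median moved by less than 1 SD within the sets under every alternative run. TNF changed sign with DESeq2, at 1.30, and of 129 named genes tested 35 changed sign in at least 1 alternative, TNF being the 1 with a call.

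Between the 5 highest and 5 lowest scores the difference in lactation was 31.6 days (exact permutation p = 0.548) and that in total counts -6031000 (exact permutation p = 0.0397, not adjusted), and the correlation of lactation with the score was 0.094. The cause of these changes was not tested. No paired analysis was possible because each library is a different cow, numbered within its yield group only to name it.

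The main limits are the sample and the choice of libraries. The lower limit of the split lies within 0.01 score units of the next cow, the scores and the tested genes come from the same libraries, and milk protein share, cell make-up and score cannot be told apart in 14 unsorted libraries. Counts of 0 allow up to 0.381 CPM.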
